A study of Mus musculus with 36 samples.

Results

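Open chromatin of the foot phalanges was set against that of the hand phalanges in the embryonic mouse, in digits I, III and V. Members were regions called in all 3 foot phalanx lists and in no hand phalanx list (foot-only), and regions with the reverse pattern (hand-only). Regions were made by merging the peaks of all 12 lists of the series that shared at least 1 bp, and a list called a region when its peaks touched at least 1 bp. Of 65543 regions, 54182 were called in at least 1 phalanx list. Among these, 888 were foot-only (1.64%) and 107 were hand-only (0.197%). A further 27029 regions, 49.9% of the 54182, were called in all 6 phalanx lists.

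The study profiled accessible chromatin by ATAC-seq, in which a transposase inserts sequencing adapters into open DNA, in chondrocytes of the autopod (hand and foot) of E15.5 embryos. All were of the FVB/NJ strain with no allele or treatment named. Each library pooled 3 to 5 embryos of 1 litter (6 to 10 limbs, right and left together), and 3 libraries were made per group. The groups used here were foot phalanges of digits I, III and V, hand phalanges of the same digits, metatarsals of the same digits and metacarpals of the same digits. Phalanges of a digit were pooled, proximal with distal in digit I and proximal, intermediate and distal in digits III and V, so no single phalanx can be read. Each group had 1 peak list called on its pooled libraries. A list therefore has no replicate error of its own, and the spread in every comparison is that between the 3 digits of a limb.

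Phalanges grow by endochondral ossification: condensed mesenchyme becomes cartilage under SOX9, and chondrocytes then proliferate, enlarge and give way to bone. Hindlimb identity and outgrowth depend on the homeodomain factor PITX1 and the T-box factor TBX4, and the paralogue TBX5 acts in the forelimb. Genes of the HoxC cluster are expressed in the hindlimb bud more broadly than in the forelimb bud, whereas posterior HoxA and HoxD genes pattern the autopod of both limbs.

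The sequences below belong to loci that the results turn on. They are credited to RefSeq (GRCm38.p6, whose coordinates are those of mm10). Of 870 genes assigned to members, 674 had a promoter window (250 bases before to 50 after a gene's start) in that table. Both mature miRNAs of Mir196a-2 are shown because this HOX-targeting miRNA gene lies in the HoxC cluster, 2031 bp (5p) and 1995 bp (3p) from the nearest foot-only region. Capitals mark the seed, bases 2 to 8. No peak of the 12 lists covered either of them at chr15:102973365-102973386 and chr15:102973401-102973422 (plus strand).
mmu-miR-196a-5p: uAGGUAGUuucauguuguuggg
mmu-miR-196a-2-3p: uCGGCAACaagaaacugccuga

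The Tbx4 promoter window (chr11:85896515-85896814, plus strand) is shown because stretches covered in foot alone lie upstream of it. All 6 phalanx lists and all metapodial lists but metacarpal V covered its 300 bases.
Tbx4 promoter: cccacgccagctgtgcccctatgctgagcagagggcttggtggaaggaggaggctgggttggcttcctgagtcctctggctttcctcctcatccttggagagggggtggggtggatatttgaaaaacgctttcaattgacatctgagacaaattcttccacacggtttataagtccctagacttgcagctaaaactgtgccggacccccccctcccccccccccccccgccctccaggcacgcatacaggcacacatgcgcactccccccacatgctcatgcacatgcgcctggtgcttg

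Member regions met few promoters. Foot-only regions overlapped the windows of 15 protein-coding and 27 other genes, and hand-only regions those of 1 protein-coding and 4 other genes. Of all 32851 promoter windows, 18156 were overlapped by a phalanx region, 47 by a foot-only and 5 by a hand-only region. The windows met by regions of other incomplete patterns were not counted, so few promoters cannot be called a trait of members. The next windows belong to the foot-only regions with the highest peak significance among protein-coding genes whose window was covered, at least in part, in all 3 foot lists. Plch2 (chr4:155019379-155019678, minus strand) encodes a phospholipase C, Trpm1 (chr7:64185209-64185508, plus strand) a cation channel and Tmod4 (chr3:95124264-95124563, plus strand) a tropomodulin of skeletal muscle. The only protein-coding window under a hand-only region was that of Apold1 (chr6:134981751-134982050, plus strand), an apolipoprotein L domain gene of endothelial cells.
Plch2 promoter: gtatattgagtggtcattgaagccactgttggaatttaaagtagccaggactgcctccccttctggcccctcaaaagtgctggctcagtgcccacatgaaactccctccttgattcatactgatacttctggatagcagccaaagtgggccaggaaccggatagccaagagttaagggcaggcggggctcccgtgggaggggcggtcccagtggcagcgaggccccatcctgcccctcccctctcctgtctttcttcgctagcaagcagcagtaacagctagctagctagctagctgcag
Trpm1 promoter: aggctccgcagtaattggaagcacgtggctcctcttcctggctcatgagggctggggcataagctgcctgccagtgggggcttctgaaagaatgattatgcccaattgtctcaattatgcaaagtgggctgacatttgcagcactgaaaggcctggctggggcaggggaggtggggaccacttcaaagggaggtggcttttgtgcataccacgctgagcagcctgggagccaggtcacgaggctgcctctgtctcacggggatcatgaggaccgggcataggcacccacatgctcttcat
Tmod4 promoter: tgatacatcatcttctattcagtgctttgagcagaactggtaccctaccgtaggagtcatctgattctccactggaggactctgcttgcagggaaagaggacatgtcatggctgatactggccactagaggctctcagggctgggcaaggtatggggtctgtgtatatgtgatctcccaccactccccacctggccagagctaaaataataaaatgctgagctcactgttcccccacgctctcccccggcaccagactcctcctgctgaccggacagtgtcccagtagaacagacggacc
Apold1 promoter: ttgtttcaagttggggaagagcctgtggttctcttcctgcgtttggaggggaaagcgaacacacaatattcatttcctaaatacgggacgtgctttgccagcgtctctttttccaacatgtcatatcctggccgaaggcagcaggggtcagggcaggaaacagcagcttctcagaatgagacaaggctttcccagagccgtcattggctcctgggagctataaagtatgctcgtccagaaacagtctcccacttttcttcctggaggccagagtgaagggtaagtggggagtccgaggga

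The foot lists I, III and V covered 300, 258 and 300 bases of the Plch2 window, and no hand list covered any. Trpm1 had all 300 bases covered in each foot list and none in the hand lists, metatarsals or metacarpals. Tmod4 had 254, 232 and 300 bases covered in foot lists I, III and V and none in hand lists. Apold1 had 0 bases covered in the foot lists and 300 in each hand list. In the metapodials none of the 4 windows was parted by limb in all digits. The Plch2 window had 300 bases covered in metatarsal I and 0 in the other metapodial lists. Tmod4 had 232 in metatarsal I and 300 in metacarpals I and III, and Apold1 had 300 in metatarsals I and III and 0 in the metacarpals. Capitals would mark matches, on either strand, to TAATCC (a bicoid-type homeodomain motif), CAATAAA (a posterior HOX motif), AGGTGTGA (a T-box motif) or its first bases AGGTGTG, and none of the 5 printed windows held one. The shorter T-box letters were added after the longer ones had given no match in the windows first looked at, and the windows printed were settled after that search. These letters occurred in 7.06%, 4.60%, 1.28% and 5.84% of all 32851 promoter windows, in the order just given. In the 18156 windows overlapped by a phalanx region they occurred in 5.40%, 2.52%, 0.898% and 4.67%. In the 47 windows under a foot-only region the shares were 8.51%, 4.26%, 2.13% and 4.26%, from 4, 2, 1 and 2 windows. These counts are small and the differences were not tested.

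The libraries' depth is unknown. The lists held 39121, 47375 and 39937 peaks in foot I, III and V and 38947, 44289 and 36789 peaks in hand I, III and V. Their lowest −log10 p-values were 31.0, 35.5 and 28.6 in foot and 48.5, 36.4 and 27.7 in hand, so the cut-off differed from list to list. Foot and hand lists overlapped in both measures (two-sided exact permutation p = 0.5 for each, where 3 lists against 3 cannot go below 0.1). All 13 chondrocyte markers, among them Sox9, Col2a1 and Acan, had peaks over the gene or its 10 kb flanks in every phalanx list. Markers of other cell types had peaks too. Those with none over the gene or its 10 kb flanks in any phalanx list were Tnmd of tendon, Emcn of endothelium, Gata1 and Hbb-b1 of blood, and Krt5 and Krt14 of epidermis. Called regions farther away were still assigned to Emcn, 1, 2 and 2 in lists I, III and V of foot and likewise of hand. Summed cover of the 12 skeletal muscle markers was 48.8 to 58.4 kb in foot lists and 41.0 to 44.7 kb in hand lists, without overlap. Cover of the 10 epidermal markers was 52.3 to 56.6 kb in foot and 45.3 to 49.4 kb in hand lists, again without overlap. As a share of the cover over all genes, the muscle markers were again higher in every foot list, the epidermal markers overlapped (0.0463% to 0.0556% in foot and 0.0390% to 0.0491% in hand lists) and the endothelial markers were higher in every foot list (0.0618% to 0.0639% in foot and 0.0539% to 0.0607% in hand lists). The part that muscle, epidermal or endothelial cells had in the results was not tested. In these bulk samples, more cells of a type and more open chromatin per cell cannot be told apart.

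Members lay far from gene ends, as did other regions not called in all 6 lists. Only 40 of the 888 foot-only regions (4.50%) and 10 of the 107 hand-only regions (9.35%) had a gene end less than 1 kb away, against 27.4% of all phalanx regions and 48.4% of those called in all 6 lists. The other incomplete patterns held 4.52% to 9.87%. The median distance between a region's centre and the nearest end of a protein-coding gene was 45.0 kb for foot-only regions, 32.7 kb for hand-only regions and 17.2 kb for all phalanx regions. Median widths were 2064 bp for foot-only and 2402 bp for hand-only regions, and 3539 bp for regions called in all 6 lists. Members were also weak peaks. Their mean percentile of significance within the lists that called them had a median of 19.2 in foot-only and 18.6 in hand-only regions, and the highest were 49.9 and 38.8.

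Regions just outside the rule differed in number by list. Called in all foot lists and 1 hand list were 1362 regions, of which hand I held 555, hand III 578 and hand V 229. Called in all hand lists and 1 foot list were 996 regions, and foot III, the longest phalanx list, held 914 of them. Foot I held 39 and foot V 43. Called in 2 foot lists and no hand list were 1707 regions, and in 2 hand lists and no foot list 865. The excess of foot-only over hand-only regions changed with how many peaks each list contributed. It was 510 against 264 when each list was cut to the length of the shortest of the 12, and 167 against 80 at a common −log10 p-value. Of the 888 foot-only regions, 245 (27.6%) were again foot-only at equal length, as were 51 of the 107 hand-only ones (47.7%). At a common −log10 p-value 60 (6.76%) and 4 (3.74%) were again members, and with the more significant 50% of peaks 0 and 0. Without foot III, 1293 regions were foot-only and 1021 hand-only, but a rule with fewer lists could not lower either count.

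**Figure D1:**
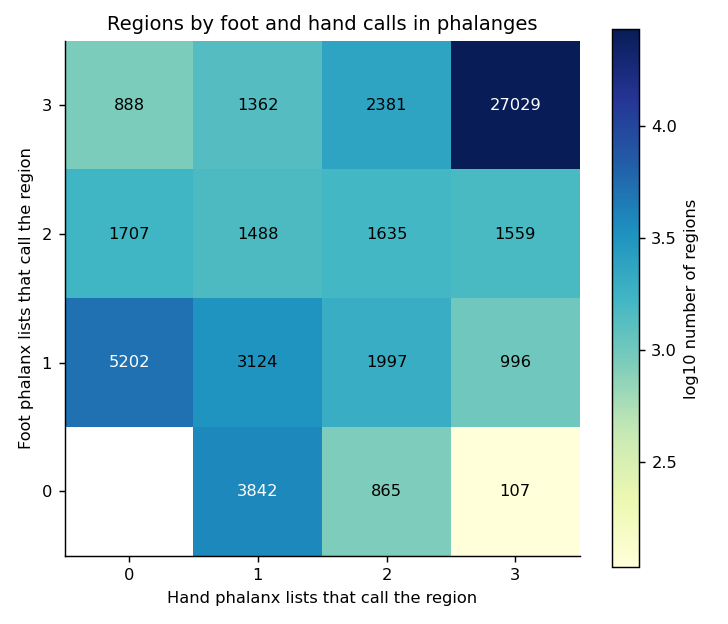
Number of regions by how many foot phalanx lists (vertical axis, 0 to 3) and hand phalanx lists (horizontal axis, 0 to 3) called them, with colour on a log10 scale. The upper left cell holds the 888 foot-only regions, the lower right cell the 107 hand-only regions and the upper right cell the 27029 called in all 6 lists.

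Similarity of whole lists followed the limb only weakly. The mean Jaccard index (shared regions over regions in either list) was 0.743 for the 6 pairs within a limb and 0.719 for the 9 pairs of a foot and a hand list (difference 0.0240, one-sided exact permutation p = 0.2 over 10 splits). Foot I and foot V were the most alike at 0.792, whereas foot I and foot III reached 0.709, below foot III and hand III at 0.750. Foot and hand lists of the same digit averaged 0.737 ± 0.0115 (SD, n = 3 pairs) and those of different digits 0.709 ± 0.0202 (SD, n = 6 pairs). Pairs within a limb always join different digits, so the latter mean is the one matched to them. At a common −log10 p-value the difference between limbs was −0.00432.

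Metapodial calls did not choose the members, so they give a readout in another element of the same limbs. Metapodial peaks did take part in the merging that set the regions' edges. With regions merged from the 6 phalanx lists alone, there were 893 and 115 members, and the metatarsal minus metacarpal differences given next were 24.6 and −21.7 points. The labels do not say whether phalanges and metapodials came from the same embryos. Foot-only regions were called more often in metatarsals than in metacarpals. Of the 888, metatarsal I, III and V called 487 (54.8%), 286 (32.2%) and 247 (27.8%), and metacarpal I, III and V called 85 (9.57%), 216 (24.3%) and 62 (6.98%). Every metatarsal list lay above every metacarpal list. On average metatarsal lists called 38.3% ± 14.5 and metacarpal lists 13.6% ± 9.35 (SD over the 3 lists of each), a difference of 24.7 percentage points (two-sided exact permutation p = 0.1, the smallest 3 against 3 allows). The difference held in all 3 digits, at 45.3, 7.88 and 20.8 points in digits I, III and V (exact sign-flip p = 0.25, the smallest that 3 pairs allow). Over all 65543 regions the mean difference was 0.344 points, and the differences in digits I, III and V were 15.4, −12.6 and −1.76 points. Without metatarsal I the foot-only difference was 16.4 points, still without overlap (exact permutation p = 0.2). It was 25.6 points with the more significant 50% of peaks and 22.8 points at a common −log10 p-value, with overlapping lists in both (exact permutation p = 0.2 and 0.3), but those values came from sets of 340 and 167 regions that held 0 and 60 of the 888.

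Hand-only regions showed the reverse. Of the 107, metatarsal I, III and V called 56, 59 and 30 (52.3%, 55.1% and 28.0%), and metacarpal I, III and V called 63, 88 and 64 (58.9%, 82.2% and 59.8%). No metatarsal list reached the lowest metacarpal list, and the difference was −21.8 points (two-sided exact permutation p = 0.1). With a peak required to cover 50% of a region, 164 regions were hand-only and the difference was −4.88 points with overlapping lists (exact permutation p = 0.7). The foot-only difference was 23.7 points under that rule, from 833 regions (exact permutation p = 0.1). With the main rule, the hand-only difference was −13.2 points without metatarsal V and −14.2 points without metacarpal III.

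**Figure D2:**
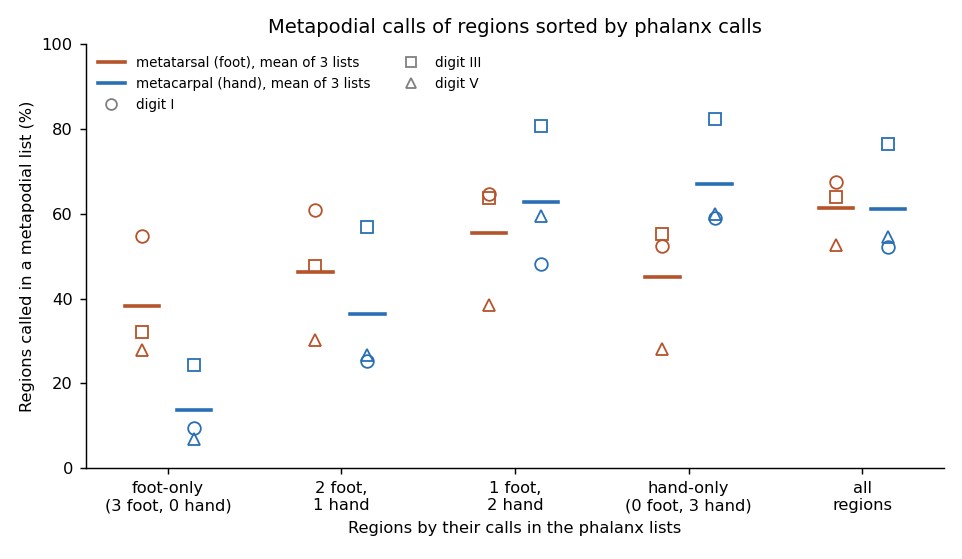
Share of regions called in each metapodial list (vertical axis, %), for regions sorted by their phalanx calls (horizontal axis). Symbols are the lists of digits I, III and V and bars the means of 3 metatarsal (brown) or 3 metacarpal (blue) lists. The means of foot-only regions were 38.3% in metatarsals and 13.6% in metacarpals, those of hand-only regions 45.2% and 67.0%, and those of all regions 61.4% and 61.0%.

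Some foot-only regions were called in phalanges alone. The share of all phalanx regions that no metapodial list called is not given here, so the counts below cannot be called high or low. No metapodial list called 323 of the foot-only regions (36.4%), metatarsal lists alone called 308, and metacarpal lists alone 15. Among hand-only regions, no metapodial list called 7, metatarsal lists alone 5 and metacarpal lists alone 24. Complete separation in both elements was rare. It held for 50 foot-only regions called in 3 of 3 metatarsal and 0 of 3 metacarpal lists, 5.63% of the 888 and 10.8% of the 465 regions with that metapodial pattern, which covered 0.709% of all regions. It held for 4 hand-only regions, 3.74% of the 107 and 1.72% of the 232 metacarpal-only regions, a pattern that held 0.354% of all regions. No foot-only region was metacarpal-only and no hand-only region was metatarsal-only.

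Tbx4, a selector of hindlimb identity, had more peak cover in foot. Peaks covered 20.5, 20.2 and 22.0 kb of the gene and its 10 kb flanks in foot I, III and V, and 10.5, 10.8 and 9.25 kb in hand I, III and V. The groups did not overlap, with a mean difference of 10.7 kb (two-sided exact permutation p = 0.1). Metatarsal I, III and V had 20.6, 16.7 and 17.5 kb, and metacarpal I, III and V 8.98, 6.01 and 4.05 kb. This measure was added after the data were seen. With the peaks of member regions left out, Tbx4 still had 19.3, 19.1 and 20.8 kb in foot I, III and V, and the hand lists were as before. Over all 17268 genes with any phalanx cover, 4.9% had more in every foot than in any hand list and 2.12% had less. Since each gene's p cannot go below 0.1, none could pass after adjustment over all genes.

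Several stretches made up the Tbx4 difference, and they were picked after their values were seen. A foot-only region, chr11:85875237-85877779, lay 9.86 kb before the gene in all 3 metatarsal and no metacarpal lists. Inside the gene, chr11:85887897-85892761 (4865 bp) was covered in full by all 3 foot lists and touched by no hand list. The same stretch was met by 3 metatarsal and 0 metacarpal lists. A second stretch, chr11:85892959-85894292 (1334 bp), had 2 metatarsal and 0 metacarpal lists. Merging had joined both to peaks shared by the limbs, so neither was a member region. The promoter window shown above lies downstream of them, under peaks of both limbs.

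Tbx5, the forelimb paralogue, was the mirror image. Peaks covered 7.03, 11.7 and 12.6 kb of it in foot I, III and V and 35.8, 19.6 and 20.3 kb in hand I, III and V, without overlap (mean difference −14.8 kb, two-sided exact permutation p = 0.1). Metatarsal I, III and V had 6.91, 2.72 and 2.85 kb, and metacarpal I, III and V 34.6, 20.5 and 13.9 kb. The hand I list was far above the others. Intragenic stretches were covered in full by all 3 hand lists and touched by no foot list at chr5:119799748-119800936 (1189 bp), chr5:119831081-119834568 (3488 bp) and chr5:119841223-119843639 (2417 bp). Metacarpal lists met them 3, 3 and 2 times and metatarsal lists 0 times. With the more significant 50% of peaks the groups overlapped, at 2.84, 2.93 and 4.88 kb in foot and 30.6, 10.5 and 2.69 kb in hand lists, since hand V fell below the foot lists. The count of called regions did not show the split: Tbx5 had 7, 7 and 9 in foot and 11, 6 and 5 in hand lists, which overlap.

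**Figure D3:**
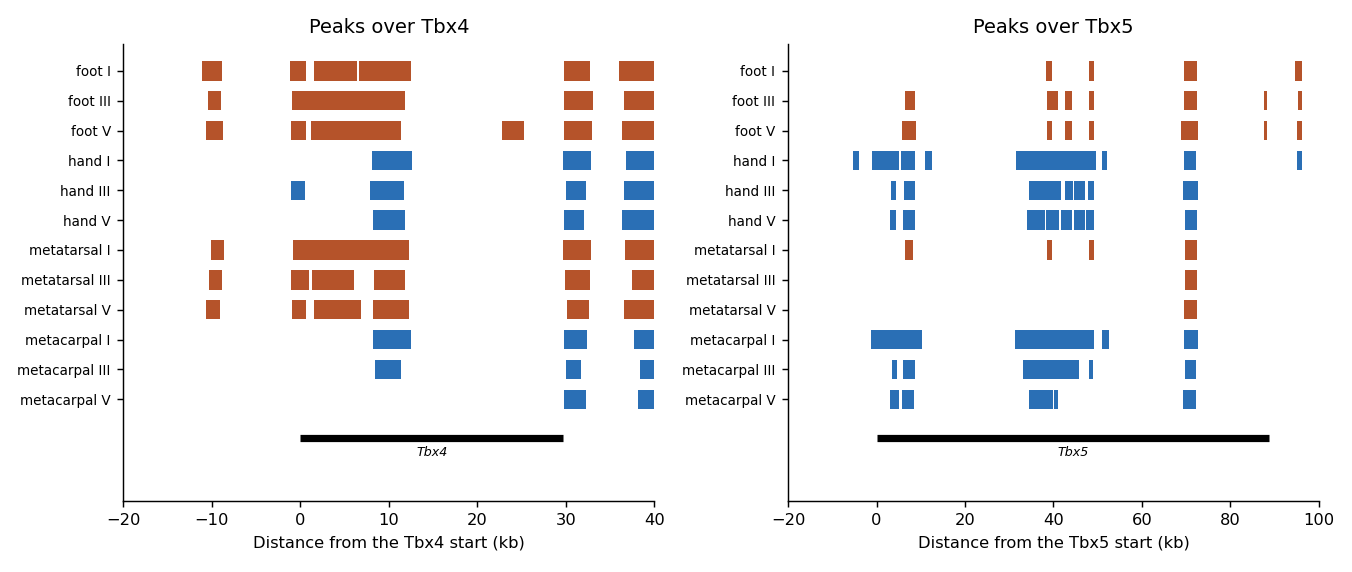
Deposited peaks over Tbx4 (left) and Tbx5 (right) in each of the 12 lists, against distance from the first annotated base of the gene in kb, with foot and metatarsal lists in brown, hand and metacarpal lists in blue and the gene as a black bar. At Tbx4 foot lists had 20.2 to 22.0 kb of cover and hand lists 9.25 to 10.8 kb, and at Tbx5 foot lists had 7.03 to 12.6 kb and hand lists 19.6 to 35.8 kb (gene and 10 kb flanks).

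Pitx1, which acts upstream of Tbx4 in the hindlimb, had 5, 5 and 5 called regions in foot I, III and V and 3, 3 and 2 in hand I, III and V. Its cover was 14.9, 15.7 and 17.8 kb in foot and 13.2, 9.02 and 10.9 kb in hand lists. Both measures parted the limbs without overlap. With its foot-only region left out, the counts still did (4, 4 and 4 regions in foot lists). Cover could not change, since that region lies outside the 10 kb flanks. By cover, metatarsal lists (12.8 to 15.3 kb) also lay above metacarpal lists (4.62 to 7.71 kb). Its foot-only region, chr13:55922661-55924984, lay 87.6 kb from the gene in 3 metatarsal and 1 metacarpal lists. Isl1, a hindlimb initiation factor, had 1 foot-only region 83.1 kb away, called in 3 metatarsal and 2 metacarpal lists, but its cover overlapped between limbs (7.76 to 14.2 kb in foot and 7.72 to 11.5 kb in hand lists). Tbx2, next to Tbx4, also overlapped, at 18.2 to 21.1 kb in foot and 15.4 to 20.3 kb in hand lists.

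HoxC genes, which encode homeodomain factors, held the group with the most foot-only regions. With gaps of up to 100 kb, the cluster chr15:102942319-103070325 (128 kb) had 4 of them and was the only group of 4. There were 6 groups of 3 and 51 of 2, and 1 group of 2 among hand-only regions. Of 19 regions across the cluster, foot I, III and V called 17, 17 and 18, and hand I, III and V called 10, 9 and 11. Metatarsal I, III and V called 15, 10 and 9, and metacarpal I, III and V 7, 7 and 5. More foot than hand lists called 11 of the 19, more hand lists called 0, and 8 were called in as many of each. The 4 foot-only regions add to every foot list and to no hand list by their definition. Over the other 15, foot lists called 13, 13 and 14 and hand lists 10, 9 and 11.

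The 4 foot-only regions of the cluster lay in separate places. One was 4.43 kb from Hoxc12 (chr15:102942319-102943767, 2 metatarsal and 0 metacarpal lists), next to the lncRNA gene Hotair. Another met the start of Hoxc9 (chr15:102975417-102978047, 1 and 0 lists) and the next lay 2.48 kb from its other end (chr15:102985840-102988004, 2 and 0 lists). The last was 32.9 kb from Hoxc4 (chr15:103069178-103070325, 1 and 0 lists). No metacarpal list called any of the 4.

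Cover over the 9 HoxC genes was higher in every foot list than in any hand list for 7 of them, whose windows share bases since neighbours lie within 10 kb. Hoxc10 had 11.0, 9.42 and 12.02 kb in foot I, III and V and 5.83, 4.56 and 4.14 kb in hand I, III and V. Hoxc9 had 8.26, 7.77 and 9.96 kb in foot and 5.07, 3.19 and 5.38 kb in hand lists. Hoxc12 had 4.02, 5.07 and 6.18 kb in foot and 1.44, 0 and 3.16 kb in hand lists. Hoxc11 had 8.23, 7.52 and 10.2 kb in foot and 6.68, 4.90 and 3.65 kb in hand lists. Hoxc8, Hoxc5 and Hoxc4 were the others without overlap. Hoxc13 had 5.63, 5.99 and 6.62 kb in foot and 3.34, 2.11 and 5.82 kb in hand lists, where hand V lay within the foot range, and Hoxc6 overlapped too. With the peaks of member regions left out, Hoxc4, Hoxc5, Hoxc10 and Hoxc11 were still higher in every foot list, whereas Hoxc8, Hoxc9 and Hoxc12 overlapped. In the metapodials Hoxc5, Hoxc9, Hoxc10, Hoxc11 and Hoxc12 parted the same way without overlap.

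**Figure D4:**
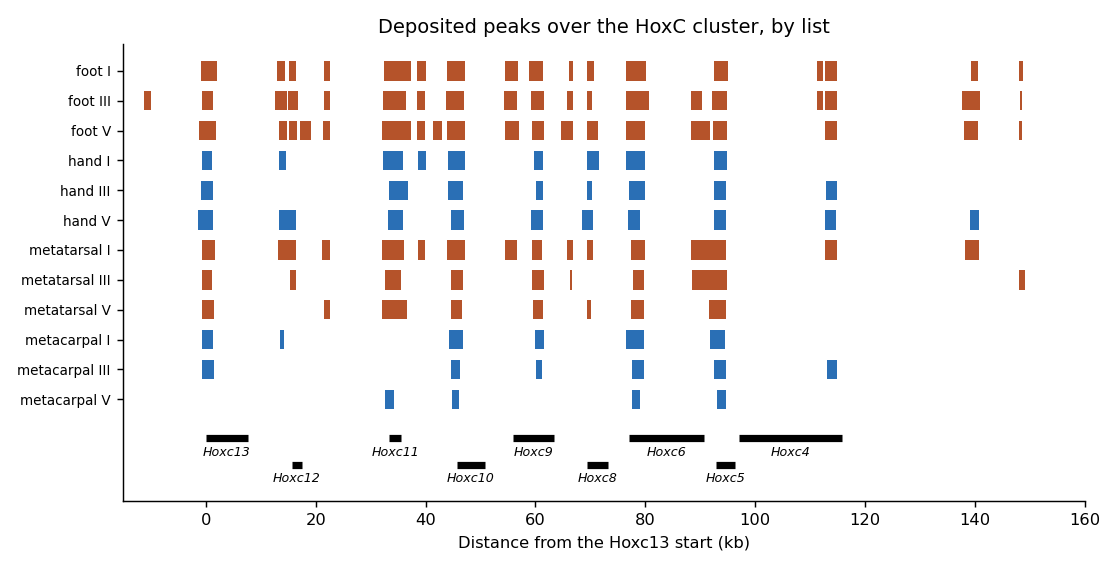
Deposited peaks over the HoxC cluster in each of the 12 lists (rows), against distance from the first annotated base of Hoxc13 in kb, with foot and metatarsal lists in brown, hand and metacarpal lists in blue and genes as black bars. Foot lists called 17, 17 and 18 of the 19 regions of the cluster and hand lists 10, 9 and 11.

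Posterior HoxA and HoxD genes, which pattern the digits of both limbs, mostly overlapped between foot and hand lists. None of the 6 genes of that list with a called region had groups without overlap in region counts. Hoxd13 cover was 19.2, 22.3 and 20.7 kb in foot I, III and V and 20.1, 19.6 and 17.3 kb in hand I, III and V. Hoxa13 cover was 16.0, 15.7 and 13.8 kb in foot and 16.7, 12.1 and 11.96 kb in hand lists. Both overlapped (exact permutation p = 0.3 and 0.4). Hoxa9 alone of 12 genes was higher in every foot list, at 22.7 to 23.4 kb in foot and 19.9 to 22.6 kb in hand lists.

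**Figure D5:**
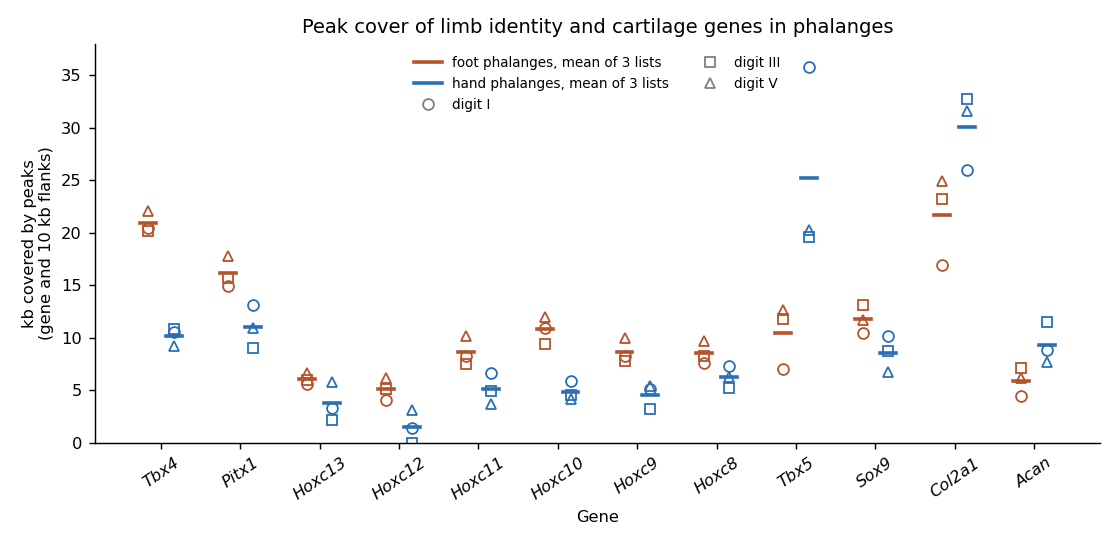
Bases covered by peaks over a gene and its 10 kb flanks (vertical axis, kb) for 12 genes, with symbols for digits I, III and V and bars for the means of 3 foot (brown) or 3 hand (blue) phalanx lists. Foot lists lie above hand lists for Tbx4, Pitx1, Hoxc8 to Hoxc12 and Sox9 and below them for Tbx5, Col2a1 and Acan, while Hoxc13 overlaps.

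Called regions were also counted per gene. Of 15911 genes with a phalanx region, 424 had more in every foot than in any hand list (2.66%) and 34 had fewer (0.214%). Members add to these counts by their definition, and 307 of the 424 had a foot-only region. Of the 34, 20 had a member. With members left out, 150 genes had more in every foot list (0.943%) and 14 had fewer (0.0880%). Genes without a member kept their counts, so those of the 424 and of the 34 are among these 150 and 14. Among 205 genes of the 16 lists, 17 had more (8.29%) and 1 had fewer. Of the 17, 12 had a foot-only region, and 7 of the 17 had more with members left out. By cover, 23 of 211 list genes were higher in every foot list (10.9%) and 9 were lower (4.27%). With the peaks of member regions left out, 20 and 9 of these still were. Cover could not change for genes whose windows met no member. The limb identity list held 5 of the 17: Pitx1, Tbx4, Hoxc4, Hoxc9 and Hoxc12, of 14 genes. The others were Sox9, Sox6, Matn1 and Cnmd of cartilage, Gdf6 of joints and Fgf9, Irx5, Meis1 and Sox11 of growth and patterning. There were also the endothelial marker Flt1 and the muscle markers Acta1 and Pax7, which belong to the muscle list whose summed cover was higher in foot. Pitx1, Sox9, Sox6, Matn1, Irx5, Pax7 and Acta1 were the 7 that did not need a member region. Of these, only Pitx1 and Irx5 had a foot-only region to leave out. Counts and cover did not always go the same way: Matn1 had 7.13 kb of cover on average in foot and 9.83 kb in hand lists, Fgf9 had 7.14 and 7.53 kb, and both overlapped. At equal list length 4 of the 17 were left, Pitx1, Hoxc9, Sox11 and Acta1, and at a common −log10 p-value 1, Hoxc4. With cover in place of counts, 7 genes of the limb identity list were higher in every foot list at all 4 choices of peaks (all deposited, the more significant 50%, equal list length and a common −log10 p-value). These were Tbx4, Pitx1, Hoxc4, Hoxc5, Hoxc8, Hoxc10 and Hoxc11. The HoxC genes among them are neighbours whose windows share bases. Hoxc4 and Hoxc5 had the same cover in each phalanx list with the more significant 50% of peaks. Of the other list genes, Col11a2 and Hoxa9 were also higher at all 4 choices. Over all genes, 846 of 17268, 794 of 15906, 748 of 17052 and 493 of 16895 were higher, in the order of choices given. How many of all genes held at all 4 is not given here.

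Cartilage genes differed in both directions. Sox9, the master regulator of chondrocytes, had 14, 16 and 18 called regions in foot I, III and V and 13, 9 and 7 in hand I, III and V. Its cover was 10.5, 13.1 and 11.7 kb in foot and 10.1, 8.73 and 6.73 kb in hand lists, without overlap. A stretch 4.36 kb before it, chr11:112777296-112778399, was covered by foot lists alone in the phalanges and met by 2 metatarsal and 0 metacarpal lists. Col2a1, the collagen of cartilage matrix and a SOX9 target, had 16.9, 23.2 and 24.9 kb in foot and 26.0, 32.7 and 31.6 kb in hand lists. The widest stretch covered in all lists of 1 limb and none of the other, chr15:97978915-97985759 (6845 bp), lay inside Col2a1 and was covered in full by all 3 hand lists and by no foot list. Metapodials did not share that split, since 2 metatarsal and 3 metacarpal lists met the stretch. Acan, the cartilage proteoglycan, had 4.43, 7.14 and 6.16 kb in foot and 8.87, 11.5 and 7.69 kb in hand lists. Cnmd, which encodes the anti-angiogenic chondromodulin, had 6.76, 6.30 and 5.66 kb in foot and 3.43, 3.95 and 3.86 kb in hand lists, and metatarsals were also above metacarpals. Col2a1 was lower in every foot list at all 4 choices of peaks. Sox9, Cnmd and Acan kept their split at equal list length but overlapped with the more significant 50% of peaks and at a common −log10 p-value. The 13 chondrocyte markers together overlapped between limbs, at 158 to 252 kb in foot and 177 to 228 kb in hand lists.

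Signalling and hypertrophy genes lower in every foot list were few. Ihh, the hedgehog ligand of prehypertrophic chondrocytes, had 4.92 to 4.94 kb in foot and 5.01 to 6.50 kb in hand lists. Nppc, which encodes C-type natriuretic peptide, had 3.58 to 3.68 kb in foot and 4.04 to 4.27 kb in hand lists. Frzb, a secreted Wnt antagonist, and Bmp4 were higher in foot, at 3.40 to 5.17 kb and 12.6 to 13.7 kb against 2.75 to 2.94 kb and 11.1 to 12.57 kb in hand lists. The patterning gene Pax9 was also higher in foot, at 15.3 to 17.9 kb in foot and 9.44 to 13.3 kb in hand lists. Ihh and Nppc held at all 4 choices of peaks, Bmp4 and Pax9 at all but the more significant 50%, and Frzb at equal list length. Col1a2, Rspo4, Kdr and Krt10, of osteoblast, nail, endothelial and epidermal lists, were also lower in every foot list, whereas Tfap2a of the epidermal list was higher, at 19.2, 24.4 and 20.02 kb in foot and 16.5, 15.1 and 15.7 kb in hand lists. Joint and digit genes Gdf5, Nfatc1, Trps1, Msx1 and Alx4 overlapped. Lhx9, a LIM homeobox gene, was the only list gene with fewer called regions in foot, at 2, 2 and 2 against 4, 3 and 3 in hand lists. Its cover overlapped, with means of 19.7 kb in foot and 18.3 kb in hand lists. The split in its counts held at equal list length. It was lost with the more significant 50% of peaks, at a common −log10 p-value and with 10 kb gene flanks.

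Few members lay nearest to a list gene. Of 888 foot-only regions, 39 were assigned to 33 list genes, and of 107 hand-only regions 2 were assigned to 2, Hhip (a hedgehog-binding protein) and Foxa2 (a forkhead factor). At least 1 metatarsal list called 21 of the 39 (53.8%) and at least 1 metacarpal list 10 (25.6%), against 61.9% and 28.9% of all foot-only regions. Foot-only regions called in all 3 metatarsal and no metacarpal lists included those of Tbx4 and Nfatc1. Gli3, the hedgehog-pathway repressor that limits digit number, had 2 foot-only regions inside it, chr13:15557791-15560929 with 1 metatarsal and 0 metacarpal lists and chr13:15620182-15622813 with 0 and 2. Ror2, a Wnt5a receptor needed for phalanx outgrowth, had 2 inside it and Bmpr1b, a receptor of digit cartilage, 1, in no metapodial list. Igf1 and Igf1r, growth factor and receptor, had 1 each. The other list genes with a foot-only region included Gdf6, Tgfbr2, Sall1, Irx5, Meis1, Meis2 and Sfrp2. Endothelial markers Flt1, Kdr and Cdh5 held 4, Ptprc and Runx1 of the blood and macrophage list 3, and Tfap2a and Trp63 of the epidermal list 2.

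Over all genes, 83 had 2 or more foot-only regions, 21 had 3 or more, and only Pmepa1, an inhibitor of TGF-beta signalling, had 2 hand-only ones. Epha4, an ephrin receptor of limb mesenchyme, and Lrmda had 5. Epha4 had 11, 18 and 13 called regions in foot I, III and V and 7, 8 and 7 in hand I, III and V. Lrmda had 14, 17 and 16 in foot and 9, 7 and 8 in hand lists. Foot-only regions add to every foot count by their definition, and without them both genes overlapped, at 6, 13 and 8 in foot and 7, 8 and 7 in hand lists for Epha4 and at 9, 12 and 11 in foot and 9, 7 and 8 in hand lists for Lrmda. In the metapodials too the lists of both genes overlapped. Erc2 had 11, 12 and 12 in foot and 4, 5 and 5 in hand lists, and without its 3 foot-only regions 8, 9 and 9 in foot lists. Of the 21 genes, Erc2 and Pard3 alone had more in every foot list without members. Auts2 and Cited2 (a transcriptional co-regulator) had 4 foot-only regions. Cited2 also had 1 hand-only region, and its called regions overlapped, at 13, 17 and 9 in foot and 6, 13 and 10 in hand lists. Slit3, a guidance ligand, Fat4, a protocadherin, and Cxcl12, a chemokine, had 3.

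The strongest foot-only region by mean percentile (49.9) was chr3:53596938-53600549 in Frem2, an extracellular matrix gene, called in 1 metatarsal and 0 metacarpal lists. Next were chr3:101348269-101351221 near Igsf3 (47.9), chr2:103597912-103602032 in Abtb2 (46.6) and chr13:101905558-101907102 near Pik3r1 (46.0), a subunit of PI3 kinase. Of the 20 strongest, 16 were called in a metatarsal list and 3 in a metacarpal list (80% and 15%, against 61.9% and 28.9% of all foot-only regions). Sox11 and Epha4 were among their genes. The strongest hand-only regions lay near Pou4f3 (38.8), Klf13 (38.4), Sgms1 (34.6) and Gadd45a (34.4). Of the 12 strongest, 10 were called in a metatarsal list and 12 in a metacarpal list (83.3% and 100%, against 71.0% and 88.8% of all hand-only regions). The members strongest among those fully parted in both elements were foot-only regions of Adk (chr14:21286920-21288455), Rybp (chr6:100024990-100027127), Nipal2, Snx29, Dclk1, Erc2 and Cacna1e and a hand-only region near Pou4f3. Rybp encodes a Polycomb component and Adk adenosine kinase. The other 3 hand-only regions fully parted in both elements were nearest to Mapkapk3, Galc and Slc39a11.

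Counting stretches of at least 500 bp in place of whole regions gave 1108 foot and 238 hand stretches, of which 270 and 143 lay within regions that merging had joined to shared peaks. Of these hidden stretches, metatarsal I, III and V met 75.2%, 44.8% and 39.6% of the foot ones and metacarpal I, III and V 32.2%, 35.6% and 17.0%. The difference was 24.9 points and the lists did not overlap (two-sided exact permutation p = 0.1). The hidden hand stretches differed by −4.90 points with overlapping lists (exact permutation p = 0.6).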

How the data were processed

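The 12 groups of 3 ATAC-seq libraries had 1 peak list each, and 6 lists were of phalanges. Per the submitters' processing notes, the tools were MACS3, Bowtie2 2.3.4.1 and Picard 2.9.0 and the build mm10, without settings. Read shifting, trimming and filtering are not given in the sources used here. Per the deposited peak names and list names, peaks were called on pooled libraries and kept by an irreproducible discovery rate of 0.05. For each peak the authors deposited a summit offset, a score, a −log10 p-value and a fold enrichment, which is a linear ratio. All come from the peak caller. Here −log10 p-values ranked or removed peaks inside a list, and summits placed the 500 bp windows. A missing peak may have fallen below a list's threshold, so it need not mark closed chromatin. No counts per library were analysed here and depth is unknown.

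Regions were merged, called and tested as in the text with Python 3.11.15, numpy 2.4.6 and pandas 2.3.3, and the steps were tested on simulated peak lists. Exact permutation tests took lists as units. Regions went to the nearest end of any protein-coding gene within 1 Mb, in a RefSeq table (GRCm38.p6) that has no strand. Promoters were read from a second RefSeq table that holds part of the genes. Members, gene lists (221 genes), tests and alternatives were chosen with earlier results of these data known. Named genes were landmark genes, genes with 2 or more members, those of the 20 and 12 strongest foot-only and hand-only regions, list genes with a member or without overlap in called regions, and the 8 strongest members parted in both elements. Some genes that meet this rule are not reported here. Other genes named for their cover or stretches were chosen after their values were seen. Alternatives were a 50% cover rule, the more significant 50% of peaks, lists of equal length (36194 peaks), a common −log10 p-value (49.6), 500 bp summit windows, regions from the 6 phalanx lists, a 1 kb margin of absence, 10 kb gene flanks and leaving out each list. Autosomes alone, a common −log10 p-value among phalanx lists, stretches, covered bases and counts without members were added after the data were seen.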

Additional observations from a re-analysis of the deposited data

Results flagged for a closer look

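S100b, a marker of Schwann cells that chondrocytes also express, parted the limbs in opposite directions in the 2 elements, and the difference between elements was not tested. Peaks covered 1.67, 2.91 and 1.39 kb of the gene and its 10 kb flanks in foot I, III and V and 1.32, 1.18 and 1.28 kb in hand I, III and V, a mean difference of 0.732 kb. Metatarsal I, III and V had 1.50, 3.19 and 2.99 kb and metacarpal I, III and V 4.32, 5.83 and 4.84 kb, a mean difference of −2.44 kb. The phalanx groups were apart with all deposited peaks but not with the more significant 50%, at equal list length or at a common −log10 p-value.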

How the results depend on the processing

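The lists carry no depth and no library-level error, and the smallest p for 3 lists against 3 is 0.1, so no result could pass 0.05. No paired analysis was possible because each list pools its 3 libraries and carries no replicate number, so that lists could be matched by digit alone, as in the exact sign-flip test of the report. Counts of foot-only and hand-only regions, 888 and 107, moved most with the peaks used. They were 340 and 8 with the more significant 50% of peaks, 510 and 264 at equal list length, 167 and 80 at a common −log10 p-value, 186 and 87 at a common value among phalanx lists, 833 and 164 with 50% cover, 987 and 194 with 500 bp summit windows, and 1108 and 238 as stretches. Regions from the 6 phalanx lists, a 1 kb margin and autosomes alone kept both within 1.5 times. Leaving out 1 phalanx list gave 1117 to 1697 foot-only and 144 to 1021 hand-only regions. The rule then asks for fewer lists, so these counts could not fall below 888 and 107. The hand-only count was 1021 without foot III, 621 without hand I and 421 without hand V. The foot-only count was 1697 without foot I, 1381 without foot V, 1443 without hand I and 1466 without hand III. The metapodial difference of foot-only regions was between 22.8 and 25.6 points under the other settings, whose sets held 0 of the 888 members with the more significant 50% of peaks and 60 at a common −log10 p-value, and between 16.4 and 30.0 points when a metapodial list was left out. That of hand-only regions was 8.33 points, reversed, with the more significant 50% of peaks (8 regions), −9.17 points at a common −log10 p-value, −4.88 with 50% cover and −26.8 to −13.2 when a list was left out. The Jaccard difference was 0.0152 to 0.0361 when a list was left out and −0.00432, reversed, at a common −log10 p-value. Genes with more and with fewer called regions in every foot list, 424 and 34, numbered 233 and 3 with the more significant 50% of peaks, 245 and 144 at equal length, 31 and 50 at a common −log10 p-value, 846 and 366 by covered bases, and 150 and 14 with members left out. The cause of these changes was not tested.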
